A study of Mus musculus with 9 samples.

Results

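Transcript levels of 33 genes of B cell receptor (BCR) signaling were read in B cells of the germinal center (GC) from mice with 0, 1 or 2 floxed alleles of Foxo1. The genes were taken from a list chosen with earlier results of these data known. It names the receptor's signaling chains, its coreceptors, kinases, adaptors, lipid enzymes, exchange factors and transcription factors. Each gene was read from its brightest probe set with a single gene symbol. Of the 33 genes, 32 had such a probe set and 31 passed the filter on dim probe sets, out of 10329 genes tested in all. Lyn, which encodes a kinase with activating and inhibitory roles, was not analysed here, and Cd5 was too dim to be tested.

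The samples were 9 Affymetrix arrays of GC B cells sorted from spleen as B220 high, PNA high and CD95 high, with 3 arrays in each genotype. WT mice were FOXO1+/+, HET mice FOXO1f/+ and KO mice FOXO1f/f, and all of them, the WT mice included, carried Cg1-Cre. The mice were 10 weeks old, received sheep red blood cells on days 0 and 5, and were analysed on day 12. Per the labels each array held cells of 1 animal, while the design text of the series names pooled cells. Cg1-Cre is driven from the gamma-1 antibody locus and acts as B cells are activated, so a sorted population can keep cells that have not yet deleted the gene, and transcript levels here are averages over all sorted cells. In such bulk samples, fewer cells of a type and less RNA per cell cannot be told apart.

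The BCR is an antibody held in the membrane together with CD79A and CD79B, whose tails carry tyrosines that SRC family kinases and SYK use to start the signal. BLNK, BTK and PLCG2 pass it on to calcium, which activates NFAT factors, and to diacylglycerol, which activates protein kinase C, NF-kB and the RAS exchange factors. CD22, CD72 and CD5 recruit phosphatases such as PTPN6 (SHP-1) that dampen the signal, and INPP5D (SHIP-1) removes the lipid made by PI3K. In GC B cells BCR signaling is known to be damped. In cells where PI3K and AKT signaling downstream of the receptor is active, it keeps the FOXO1 protein out of the nucleus.

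Each array gave 1 signal per probe set on a linear scale, scaled by the authors to the same trimmed mean. The targeted gene Foxo1 had a mean signal of 5449 ± 159 in WT arrays, 3564 ± 77.9 in HET arrays and 1034 ± 335 in KO arrays (SD, n = 3), in the order of the labels (KO vs WT log2 change -2.45, limma adjusted p = 2.3e-06). The position of its probe set in the gene was not analysed here. Among markers fixed for other cells, those of marginal zone B cells summed to 16682 to 17165 in WT, 16440 to 17705 in HET and 21941 to 23852 in KO, with 8 of 9 tested genes higher in KO vs WT. Myeloid markers summed to 1493 to 2412 in WT, 1919 to 3274 in HET and 3630 to 4821 in KO, over 16 genes on the array, of which 10 were tested and 5 were higher. The myeloid genes C1qa, Cd14, Csf3r, Fcgr3, Itgam and Marco stayed under the median of each of the 9 arrays, as did the T cell genes Cd3d, Cd3g, Cd4, Cd28, Cd8b1 and Zap70. T cell markers summed to 252 to 311 in WT, 239 to 420 in HET and 188 to 302 in KO. Of 9 plasma cell markers, 8 were tested, 4 were higher and 1 was lower in KO vs WT. Of 8 tested GC B cell markers, 2 were higher and 1 was lower. Of 5 tested B-1 cell markers 3 were lower, the dim Ctla4 among them. Ctla4 reached the array median on 5 of 9 arrays, and its KO mean signal of 26.55 lay under the median of every KO array. Its fall is therefore not read as a result. Of 3 dendritic cell markers 1 was higher, and the single tested gene of red cells and platelets was lower. The tested genes of NK and stromal cells did not pass. Over all genes tested, 6.11% were higher and 5.83% lower in KO vs WT. Myeloid cells also express Syk, Plcg2, Inpp5d, Pik3ap1 and Vav1, and the part of these other cells in the results below was not tested.

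The stretch before each gene's start was searched for the core letters that FOXO factors are known to bind, GTAAACA on either strand (TGTTTAC read from the other strand), in windows of 250 bases before to 50 bases after the start from RefSeq (GRCm38.p6). Windows were found for 28 of the 33 genes, 37 windows in all, and 1 of the 37 (2.70%) held the letters, beside 3.65% of all 32851 windows in the table. The match was in 1 of 2 windows of Nfatc2, where it began 185 bases before the start. None of the 17 windows of the 12 genes with a window that changed in KO vs WT held it (0 of 17). No match says only that these letters are absent from these windows. The 250 bases before the start are shown for Nfatc2, the gene with a match (in capitals), for Pik3ap1, which had the largest rise, and for Syk, the kinase that fell (the first of its 2 windows).
Nfatc2, chr2:168601658-168601907 (-): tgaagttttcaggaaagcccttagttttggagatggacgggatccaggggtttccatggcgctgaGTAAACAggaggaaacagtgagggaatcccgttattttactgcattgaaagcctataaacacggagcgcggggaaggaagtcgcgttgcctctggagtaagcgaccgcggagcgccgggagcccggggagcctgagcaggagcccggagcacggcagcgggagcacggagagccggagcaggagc
Pik3ap1, chr19:41385103-41385352 (-): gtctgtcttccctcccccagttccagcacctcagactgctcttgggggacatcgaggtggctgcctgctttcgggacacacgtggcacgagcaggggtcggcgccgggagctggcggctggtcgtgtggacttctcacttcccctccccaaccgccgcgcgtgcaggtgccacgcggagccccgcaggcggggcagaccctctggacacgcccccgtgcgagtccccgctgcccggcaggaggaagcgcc
Syk, chr13:52583187-52583436 (+): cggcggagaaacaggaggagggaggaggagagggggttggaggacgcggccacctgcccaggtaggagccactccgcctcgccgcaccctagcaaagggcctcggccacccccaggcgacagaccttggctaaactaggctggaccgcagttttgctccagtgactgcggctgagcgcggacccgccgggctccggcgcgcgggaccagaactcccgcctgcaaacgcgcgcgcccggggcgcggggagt

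KO vs WT is the contrast in the title of the series. In KO cells 10 of the 31 genes were higher and 3 were lower, each at a limma adjusted p under 0.05 over all genes tested, and 18 of 31 had an unadjusted p under 0.05, beside 25.7% of all genes. The genes that rose were Pik3ap1, Dapp1, Grb2, Plcg2, Itpkb, Inpp5d, Vav2, Sos1, Rasgrp3 and Ptprc, and those that fell were Syk, Prkcd and Nfatc1. Over all genes tested, 6.11% were higher and 5.83% lower, 11.9% in all. The share of members called higher (32.3%) lay above that background and the share called lower (9.68%) nearer to it. Because the members were chosen with earlier results of these data known, these shares describe the list and are no test of it. Of the members, 29 had a mean signal over 1000, and of all genes that bright 5.26% were higher and 7.60% lower. The changes were small: the called members moved by 0.16 to 0.42 on the log2 scale, and 0 of 13 moved over 2-fold, beside 228 of 1233 called genes in all. The median change was 0.072 over the members and 0.011 over all genes tested. KO and WT arrays did not overlap for 17 members, 12 with KO above and 5 with KO below. This was 54.8% of members, beside 29.7% of all genes tested (16.2% above and 13.5% below). Vav3, a dim gene that passed the filter only through WT and HET arrays, where it was higher, is among these 5. It is also among the 18 members with an unadjusted p under 0.05, and is not read as a result.

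**Figure D1:**
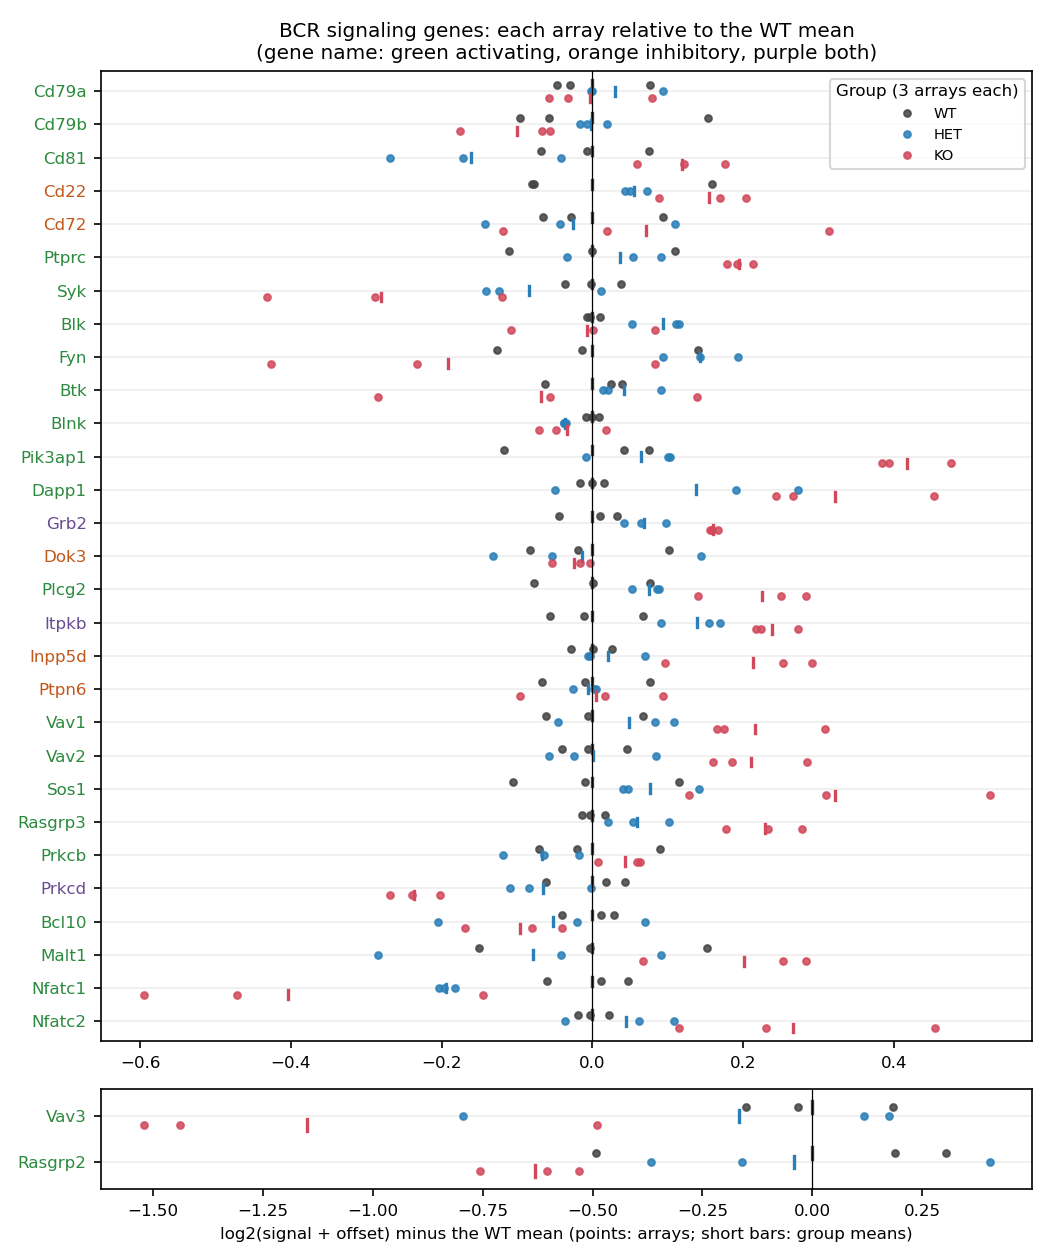
Each point is an array's log2(signal + offset) minus the mean of the 3 WT arrays, for the 31 tested genes in WT (grey), HET (blue) and KO (red), with short bars for group means; Vav3 and Rasgrp2 have their own, wider axis. KO points of Pik3ap1, Itpkb and Rasgrp3 lie above all WT and HET points, and those of Nfatc1 and Syk lie below all WT points.

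The small rises depend on how the arrays are scaled. The median signal of an array was 47.4 to 48.0 in KO, 42.9 to 44.8 in WT and at most 45 in HET. Centring each array on its median shifted the median change of all genes by -0.120. Of 10329 genes tested, 399 were then higher and 1683 lower. Under that scaling, 1 of 31 members was higher (Pik3ap1) and 7 were lower. The lower ones were Syk, Prkcd, Nfatc1, Cd79b, Blnk, Rasgrp2 and Vav3, a dim gene admitted by its WT and HET arrays. The share of members called higher then no longer lay above that of all genes. With quantile normalization 569 genes were higher and 643 lower, and 11 members were higher and 4 lower: Dapp1 and Sos1 were no longer called, and Cd22, Cd81 and Vav1 (higher) and Vav3 (lower) were. All 13 called members kept the sign of their change under both scalings. The rise of Pik3ap1 and the falls of Syk, Prkcd and Nfatc1 were called under each scaling.

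**Figure D2:**
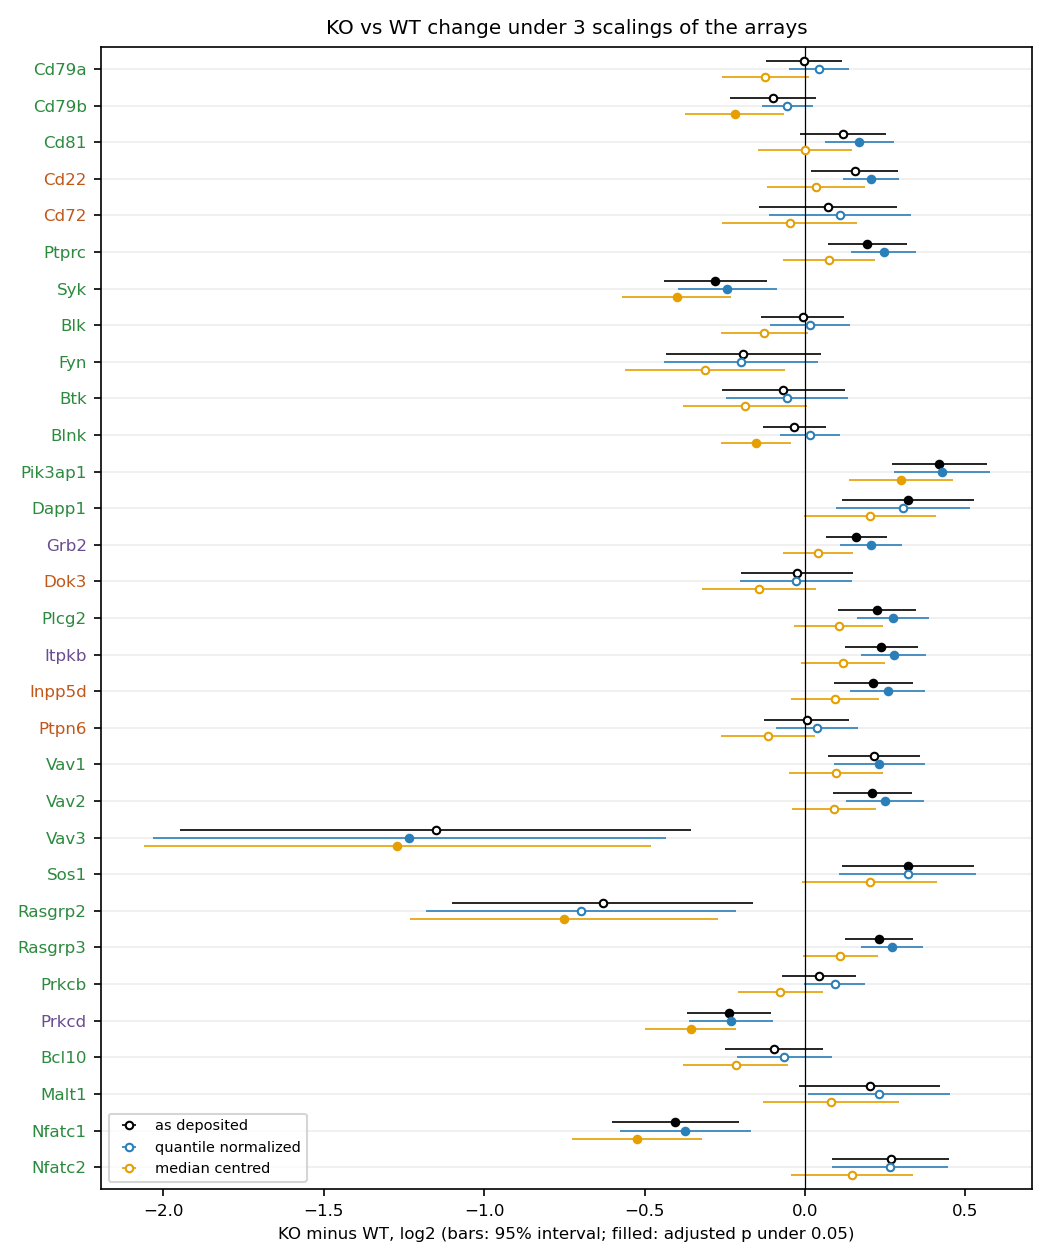
The KO minus WT log2 change of the 31 tested genes, with 95% intervals, is shown for signals as deposited (black), quantile normalized (blue) and centred on each array's median (yellow); filled points have an adjusted p under 0.05. Median centring moves all points to the left by about the same amount, and Pik3ap1 is the 1 gene to the right of 0 that stays filled.

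The counts also moved with single arrays. Over all genes the 1233 calls in KO vs WT fell too, to between 768 and 1183. The members came to 4 higher without WT replicate 1, WT replicate 2, KO replicate 1 or KO replicate 3. They came to 6 higher without KO replicate 2, and to 7 higher without WT replicate 3 or HET replicate 2. The count of lower members was 0 without WT replicate 3 and 1 without WT replicate 2 or KO replicate 2. Pik3ap1, Itpkb and Rasgrp3 were called in each of the 9 fits that left out an array, and Nfatc1 in 8 of 9.

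The signaling chains of the receptor itself did not pass the test. Cd79a stood at 6853, 6773 and 7376 on the WT arrays, 7463, 6990 and 6992 on the HET arrays and 6841, 6724 and 7392 on the KO arrays. The 3 groups overlapped, the KO mean was 99.8% of the WT mean, and the 95% interval of the KO vs WT log2 change ran from -0.12 to 0.12 (limma adjusted p = 0.982). Cd79b stood at 10266, 10541 and 12210 in WT, 11118, 10920 and 10847 in HET and 9719, 10479 and 10550 in KO. Its KO arrays lay below all HET arrays but overlapped with WT, and the change of -0.10 (interval -0.23 to 0.03) did not pass (limma adjusted p = 0.342).

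Of the surface molecules that tune the receptor, the phosphatase gene Ptprc rose and the inhibitory coreceptors did not pass. Ptprc encodes CD45, which frees SRC family kinases from their inhibited state. Its signal was 7443, 8036 and 8671 in WT, 7850, 8558 and 8338 in HET and 9315, 9098 and 9177 in KO. All KO arrays lay above all WT and HET arrays, with a log2 change of 0.19 (SE 0.057, limma adjusted p = 0.0433). That call was held without WT replicate 3 (adjusted p = 0.00961) or HET replicate 1 (adjusted p = 0.0464) and lost without each of the other 7 arrays (adjusted p = 0.154, 0.112, 0.117, 0.0885, 0.0854, 0.0536 and 0.0592 without WT replicates 1 and 2, KO replicates 1, 2 and 3 and HET replicates 2 and 3). Cd22, a lectin receptor whose tail recruits PTPN6, was 8489, 8472 and 9997 in WT, 9421, 9279 and 9234 in HET and 9528, 10324 and 10080 in KO. Its KO arrays lay above all HET arrays, and WT replicate 3 was the high array among WT. The change of 0.15 (SE 0.062, limma adjusted p = 0.133) was called without that array (adjusted p = 0.00555). Cd72, a second receptor with an inhibitory tail, changed by 0.07 (limma adjusted p = 0.709), and its arrays overlapped. Cd5, an inhibitory receptor of T cells and B-1 cells, stayed between 26.9 and 51.3 on all 9 arrays, at or above the array median on 2 of them.

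Cd81 encodes a tetraspanin, a membrane protein that organises other molecules at the B cell surface. It was 8879, 8511 and 9405 in WT, 8669, 7408 and 7921 in HET and 9298, 9710 and 10085 in KO. The HET arrays tended to the low side and the KO arrays to the high side, with KO above all HET arrays and overlapping WT. The KO vs WT change of 0.12 did not pass (limma adjusted p = 0.248), while the KO vs HET change of 0.28 did (SE 0.061, limma adjusted p = 0.0138). The KO vs HET call was lost without KO replicate 3 (adjusted p = 0.05 after rounding) or HET replicate 2 (adjusted p = 0.0659), and with each array centred on its median (0.18, adjusted p = 0.0931).

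Among the tyrosine kinases, Syk fell and Btk, Blk and Fyn did not pass. Syk encodes the kinase that docks on the phosphorylated CD79 tails and starts the downstream cascade. It was 4916, 5036 and 5174 in WT, 4572, 4628 and 5084 in HET and 4638, 4127 and 3738 in KO. KO arrays lay below all WT arrays and overlapped with HET, and the KO mean was 82.7% of WT (log2 change -0.28, SE 0.074, limma adjusted p = 0.0276). It was not called without WT replicates 1, 2 or 3 in turn (adjusted p = 0.0513, 0.0793 and 0.0839) or KO replicate 2 or 3 (adjusted p = 0.0721 and 0.0847). Btk, which activates PLCG2, was 2939, 2766 and 2969 in WT, 2919, 2932 and 3078 in HET and 3182, 2372 and 2779 in KO. The KO arrays spread around the others, and the change of -0.07 (interval -0.26 to 0.12) did not pass (limma adjusted p = 0.693). The SRC family genes Blk (-0.01, limma adjusted p = 0.959) and Fyn (-0.19, limma adjusted p = 0.308) did not pass either. Fyn was 1960 on KO replicate 1 but 1574 and 1377 on the other KO arrays, and its change of -0.33 was called without KO replicate 1 (limma adjusted p = 0.0488).

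The adaptors moved apart, with Pik3ap1, Dapp1 and Grb2 higher and Blnk and Dok3 not called. Pik3ap1 encodes BCAP, which recruits PI3K to the receptor complex. Its signal was 1928, 2153 and 2204 in WT, 2080, 2242 and 2247 in HET and 2730, 2911 and 2748 in KO. Every KO array lay above every WT and HET array, and the KO mean was 1.33 times the WT mean (log2 change 0.42, SE 0.068, limma adjusted p = 0.00169). Dapp1 encodes BAM32, an adaptor that binds the lipids made by PI3K. It was 895, 915 and 905 in WT, 875, 1033 and 1094 in HET and 1240, 1073 and 1089 in KO. KO arrays lay above all WT arrays and overlapped with HET (0.32, SE 0.095, limma adjusted p = 0.0453). The Dapp1 call was lost without each WT array (adjusted p = 0.111, 0.105 and 0.117), each KO array (adjusted p = 0.149, 0.0579 and 0.0580) or HET replicate 2 (adjusted p = 0.0568).

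Grb2 encodes an adaptor that brings SOS1 to the membrane and, with DOK3, also limits calcium signaling. It was 6882, 6993 and 6630 in WT, 7313, 7148 and 7035 in HET and 7616, 7626 and 7671 in KO. On this brightest probe set the 3 groups did not overlap at all, with HET between WT and KO. The KO vs WT change was 0.16 (SE 0.043, limma adjusted p = 0.0304). With each array centred on its median it was 0.04 (limma adjusted p = 0.611). On the other kept probe set HET had the lowest mean (2790), and the KO mean (3040) lay below the WT mean (3120). The share of all genes with all 3 groups apart was not analysed here. The call of Grb2 was lost without any of the WT arrays (adjusted p = 0.0671, 0.0530 and 0.0553) or KO arrays (adjusted p = 0.0768, 0.0747 and 0.0708). Blnk, the scaffold that joins SYK to BTK and PLCG2, was 5864, 5824 and 5791 in WT, 5688, 5677 and 5677 in HET and 5547, 5633 and 5903 in KO. Its HET arrays lay just below the WT arrays, and the KO vs WT change of -0.03 (interval -0.13 to 0.06) did not pass (limma adjusted p = 0.702). Dok3, an adaptor that recruits INPP5D, changed by -0.02 (limma adjusted p = 0.893).

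With signals as deposited, all 3 tested enzymes of inositol lipids and calcium were called higher in KO, beside 6.11% of all genes tested. With each array centred on its median, the changes of Plcg2, Itpkb and Inpp5d were 0.11, 0.12 and 0.09. None of them was then called (limma adjusted p = 0.263, 0.189 and 0.324). Plcg2 encodes the phospholipase that makes the calcium messenger IP3 and diacylglycerol. It was 4760, 5297 and 5023 in WT, 5342, 5328 and 5207 in HET and 5973, 5537 and 6114 in KO. KO arrays lay above all others (0.22, SE 0.056, limma adjusted p = 0.0202), a call that did not hold without WT replicate 1, KO replicate 1 or KO replicate 3 (adjusted p = 0.0823, 0.0686 and 0.0661). Itpkb encodes a kinase that converts IP3 to IP4. Its signal was 3790, 3913 and 4129 in WT, 4434, 4198 and 4390 in HET and 4602, 4583 and 4764 in KO. The 3 groups again did not overlap, with HET in the middle (KO vs WT 0.24, SE 0.053, limma adjusted p = 0.0108). Inpp5d encodes SHIP-1, which removes the PI3K lipid PIP3. It was 4831, 4931 and 5018 in WT, 5173, 4908 and 4918 in HET and 5871, 5265 and 6030 in KO. KO arrays lay above all others (0.21, SE 0.057, limma adjusted p = 0.0303), a call that did not hold without WT replicates 1 or 2 (adjusted p = 0.0905 and 0.0828) or KO replicate 1 or 3 (adjusted p = 0.0986 and 0.0964). Ptpn6, the phosphatase gene that acts behind CD22 and CD72, changed by 0.01 with an interval from -0.13 to 0.14 (limma adjusted p = 0.973).

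Of 6 exchange factor genes, Vav2, Sos1 and Rasgrp3 were higher, and Vav1, Vav3 and Rasgrp2 did not pass. Rasgrp3 encodes a diacylglycerol-responsive activator of RAS. It was 4629, 4599 and 4695 in WT, 4818, 4711 and 4980 in HET and 5249, 5458 and 5629 in KO. The 3 groups did not overlap, with HET in between (KO vs WT 0.23, SE 0.049, limma adjusted p = 0.00887). Vav2, an activator of RAC GTPases, was 4348, 4195 and 4094 in WT, 4048, 4464 and 4141 in HET and 5129, 4708 and 4788 in KO. Its HET arrays mixed with WT and its KO arrays lay above both (0.21, SE 0.057, limma adjusted p = 0.0321). Vav2 was not called without WT replicates 2 or 3 (adjusted p = 0.0915 and 0.0882) or KO replicate 1 or 3 (adjusted p = 0.116 and 0.0507).

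Sos1 encodes the RAS activator carried by GRB2. It was 1758, 1645 and 1918 in WT, 1954, 1821 and 1829 in HET and 1934, 2552 and 2195 in KO. KO arrays lay above all WT arrays, with KO replicate 2 the highest and KO replicate 1 close to WT replicate 3 (0.32, SE 0.095, limma adjusted p = 0.0453). The call of Sos1 was held only without KO replicate 1 (adjusted p = 0.0133) among the fits that left out an array; without the other arrays adjusted p lay between 0.0516 and 0.165 (WT replicates 0.105, 0.165 and 0.0533; KO replicates 2 and 3 0.159 and 0.0784; HET replicates 0.0516, 0.0578 and 0.0582). Vav1 changed by 0.22 and narrowly missed the threshold (SE 0.066, limma adjusted p = 0.0520), with all KO arrays above the others. It was called without HET replicate 3 (adjusted p = 0.0486).

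The lower values of Vav3 and Rasgrp2 were the largest in size among the members and did not pass. The values of Vav3, Rasgrp2 and Nfatc2 in each array are given because these genes came near the threshold, a choice made after seeing them. Vav3 was dim, at 51.2, 47.0 and 59.8 in WT, 57.0, 29.3 and 59.4 in HET and 16.9, 18.0 and 36.7 in KO. It passed the filter through 5 WT and HET arrays, where it was higher, and lay below the array median on all KO arrays. Its log2 change of -1.15 (SE 0.367) is therefore a description, and no call of Vav3 under another setting is read as a result. Rasgrp2, which activates the small GTPase RAP1, was 325, 522 and 566 in WT, 607, 409 and 355 in HET and 270, 317 and 300 in KO. Its KO arrays lay below all others, the WT and HET arrays spread widely, and the change of -0.63 did not pass (SE 0.217, limma adjusted p = 0.0803). It was called without WT replicate 1 (-0.88, adjusted p = 0.0156) or HET replicate 1 (adjusted p = 0.0466).

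In the branch to NF-kB, Prkcd fell and Prkcb, Bcl10 and Malt1 did not pass. Prkcd encodes protein kinase C delta, known for its part in B cell tolerance. It was 2343, 2522 and 2476 in WT, 2307, 2268 and 2444 in HET and 2031, 2072 and 2125 in KO. KO arrays lay below all WT and HET arrays (-0.24, SE 0.060, limma adjusted p = 0.0230). Prkcd was not called without WT replicates 2 or 3 (adjusted p = 0.0917 and 0.0751) or KO replicate 1 or 2 (adjusted p = 0.0712 and 0.0548). Prkcb, which encodes protein kinase C beta, changed by 0.04 (limma adjusted p = 0.671). Bcl10 (-0.10, limma adjusted p = 0.426) and Malt1 (0.20, limma adjusted p = 0.234), whose proteins act together on the way to NF-kB, did not pass, and their arrays overlapped.

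The NFAT genes, which encode calcium-driven transcription factors, had values on opposite sides. Nfatc1 fell, from 4318, 4108 and 4424 in WT and 3718, 3736 and 3773 in HET to 3089, 3870 and 2833 in KO. All HET and KO arrays lay below all WT arrays, while KO replicate 2 lay above the HET arrays. The KO mean was 76.2% of the WT mean (-0.40, SE 0.091, limma adjusted p = 0.0121), a call that did not hold without WT replicate 3 (adjusted p = 0.0509). In HET vs WT Nfatc1 changed by -0.19, which did not pass. Nfatc2 was 1708, 1739 and 1689 in WT, 1787, 1846 and 1669 in HET and 2347, 2008 and 1854 in KO. All KO arrays lay above the others, and the change of 0.27 did not pass (SE 0.084, limma adjusted p = 0.0586), except without KO replicate 3 (adjusted p = 0.0213).

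Other probe sets of the same genes gave a second reading. The members had 74 probe sets with a single symbol, of which 63 were kept, and 9 of these were higher and 7 lower in a limma fit over all 19479 kept probe sets (8.19% called, 4.06% higher and 4.13% lower). Of 20 members with more than 1 kept probe set, 16 had all of them on the same side of 0. This count goes by sign alone and includes values near 0, such as a dimmer probe set of Syk (-0.01, limma adjusted p = 0.992). The same share over all genes was not analysed here. With more features to adjust over, the brightest probe sets of Ptprc, Dapp1 and Sos1 missed the threshold there (limma adjusted p = 0.0526, 0.0612 and 0.0597). Nfatc1 had changes below 0 on all 5 of its probe sets, with 3 called: the brightest (-0.40, limma adjusted p = 0.0162), another (-0.88, limma adjusted p = 0.00204) and the dimmest (-0.84, limma adjusted p = 0.0325). Syk had a second called probe set (-0.32, limma adjusted p = 0.00765). Rasgrp2 had changes below 0 on all 4 of its probe sets, of which the second brightest was called (-0.69, limma adjusted p = 0.0494). Itpkb was higher on both of its probe sets, at 0.24 and 0.56. The dimmer probe set of Cd22 rose by 0.47 (SE 0.081, limma adjusted p = 0.00317), although the brightest one was not called.

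Other members had probe sets that differed. Prkcd had values of -0.24 on its brightest probe set and 0.09 on its other one (limma adjusted p = 0.751). Grb2 had 0.16 and -0.04, Dapp1 0.32 and 0.03, and Sos1 0.32, 0.11 and -0.42 on its 3 kept probe sets. For Prkcd, Grb2, Dapp1 and Sos1 the calls thus rest on the brightest probe set. They were lost when the probe sets of each gene were averaged, with changes of -0.08, 0.06, 0.17 and 0.01 (limma adjusted p = 0.571, 0.397, 0.117 and 0.986), as were those of Syk (-0.22, limma adjusted p = 0.0945) and Vav2 (0.27, limma adjusted p = 0.149). Averaging also gained calls, of Cd22 (0.31, limma adjusted p = 0.00103) and Vav1 (0.30, limma adjusted p = 0.031).

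**Figure D3:**
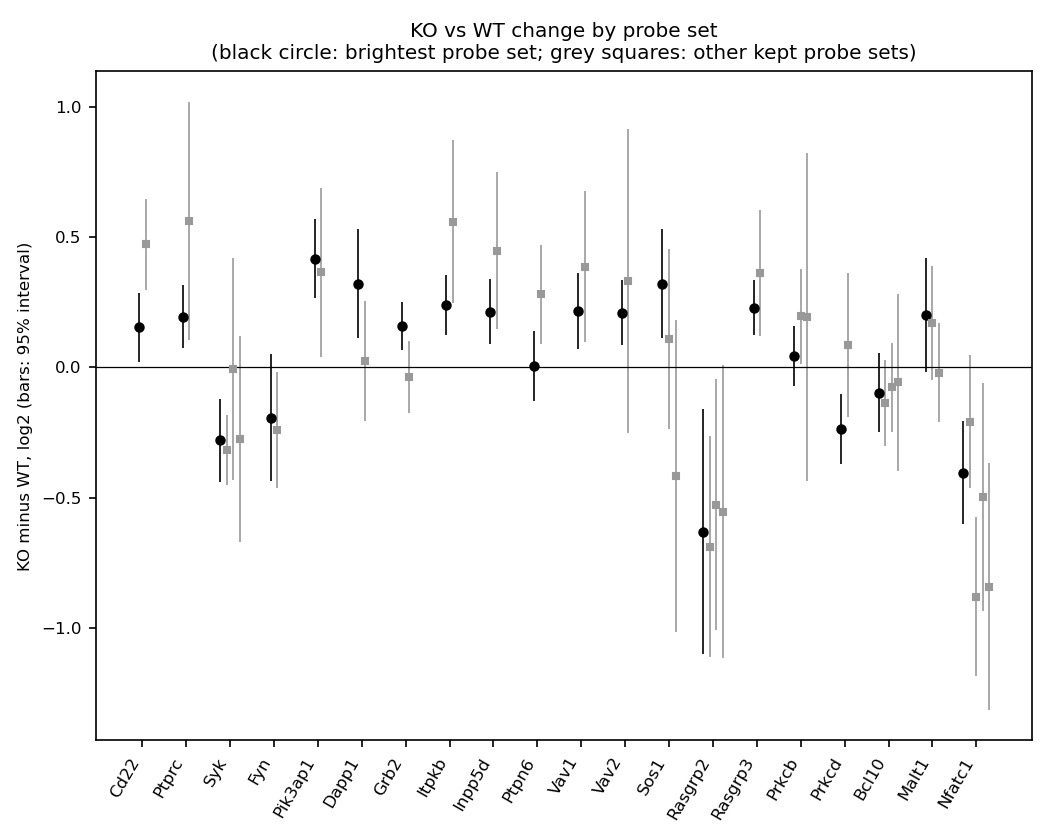
The KO minus WT log2 change, with its 95% interval, is shown for every kept probe set of the 20 members that had more than 1, with the brightest as a black circle and the others as grey squares. All 5 probe sets of Nfatc1 and all 4 of Rasgrp2 lie below 0, and the points of Prkcd and Sos1 lie on both sides of it.

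Activating and inhibitory members were set side by side by their known roles. Of 23 tested activating members, 7 were higher, 2 were lower and 14 did not pass, with a median change of 0.043. Of 5 inhibitory members, Inpp5d was higher and 4 did not pass (Cd22, Cd72, Dok3 and Ptpn6), with a median of 0.072. The 3 tested members with both roles all changed, Grb2 and Itpkb higher and Prkcd lower. The median of the inhibitory members stood 0.03 above that of the activating members. The SD of this difference over the 3 KO arrays, each set against the WT mean, was 0.084. That SD leaves out the spread of the WT arrays, and whether the classes differ was not tested. By role, the receptor chains gave 0 calls of 2, the coreceptors (Ptprc included) 1 rise of 4, the kinases 1 fall of 4 and the adaptors 3 rises of 5. The lipid and calcium enzymes gave 3 rises of 3, the phosphatase Ptpn6 0 calls of 1 and the exchange factors 3 rises of 6. The protein kinase C and NF-kB genes gave 1 fall of 4, and the transcription factors 1 fall of 2. Over all genes tested 11.9% were called in either direction.

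**Figure D4:**
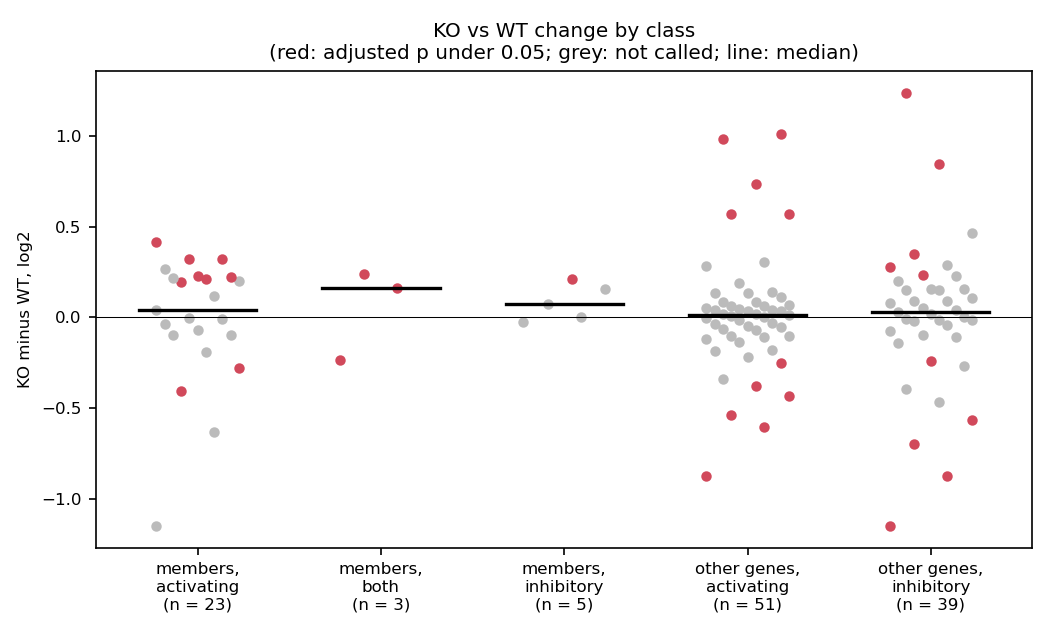
Each point is a gene's KO minus WT log2 change, for the 23 activating, 3 mixed and 5 inhibitory members and for 51 and 39 other pathway genes; red points were called and black lines are medians. The 5 medians lie between 0.011 and 0.160, and the other pathway genes reach larger changes in both directions than the called members.

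Further genes of the pathway were read from lists written beside the members. Of 66 other activating genes, 51 were tested, and 5 were higher, 6 lower and 40 not called. Among all genes tested 6.11% were higher and 5.83% lower. Cr2, which encodes a complement receptor and is also a marginal zone marker, had means of 2874 ± 134, 3190 ± 257 and 4789 ± 294 in WT, HET and KO (SD, n = 3; log2 change 0.74, limma adjusted p = 3.26e-05). The protein kinase C gene Prkce went from 556.3 ± 25.9 in WT to 1108 ± 142 in KO (SD, n = 3; 0.98, limma adjusted p = 7.06e-05). Themis2, an adaptor that lowers the threshold for BCR signaling, rose by 1.01 (limma adjusted p = 1.62e-04), and Pik3cg, a catalytic subunit of PI3K, by 0.57 (limma adjusted p = 3.10e-04). Ppp3cc, a subunit of the calcineurin phosphatase that activates NFAT, fell by 0.54 (limma adjusted p = 5.96e-04), and Stap1, an adaptor that binds tyrosine kinases, fell by 0.43 (limma adjusted p = 0.00136).

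Of 48 other inhibitory genes, 39 were tested, and 5 were higher, 5 lower and 29 not called, beside the same 6.11% and 5.83% of all genes. Dusp6, which encodes a phosphatase of ERK, had means of 1341 ± 14.9, 1041 ± 56.5 and 607.0 ± 83.4 in WT, HET and KO (SD, n = 3; -1.15, limma adjusted p = 1.46e-05). Spred2, an inhibitor of RAS and ERK signaling, fell by 0.88 (limma adjusted p = 0.00460), and Dgka, which consumes diacylglycerol, fell by 0.56 (limma adjusted p = 6.28e-04). Ptpn22, a phosphatase that acts on SRC and SYK family kinases, rose by 1.24 (limma adjusted p = 0.00320). The ubiquitin ligase gene Cblb rose by 0.35 (limma adjusted p = 0.00862) and Pag1, which anchors the SRC inhibitor CSK, by 0.28 (limma adjusted p = 0.00269). With each array centred on its median, 5 activating genes were higher and 9 lower, 2 inhibitory genes were higher and 9 lower, and the calls of Pag1 (0.16, limma adjusted p = 0.0536) and Cblb (0.23, limma adjusted p = 0.0568) were lost. The call of Pag1 was also lost when its probe sets were averaged (0.28, limma adjusted p = 0.26).

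HET vs WT asks what the loss of a single allele does. Of the 31 members limma called 0, beside 1 of 10329 genes (0.00968%), and 2 members had an unadjusted p under 0.05, beside 4.18% of all genes. These were Cd81 (-0.16, adjusted p = 0.998) and Itpkb (0.14, adjusted p = 0.998). The count was 0 in each of the other fits, including robust eBayes and array weights. The member changes lay between -0.19 and 0.14. HET and WT arrays did not overlap for 4 members with HET above (Grb2, Itpkb, Rasgrp3 and Blk) and 2 with HET below (Blnk and Nfatc1), beside 4.95% and 4.88% of all genes (9.83% in all). For all 13 members called in KO vs WT the HET mean lay between the WT and KO means, beside 953 of all 1233 called genes (77.3%). This was read from the brightest probe sets, and on the other kept probe set of Grb2 the HET mean was the lowest. The HET departure from the midpoint of WT and KO was called for 0 of 31 members (3 at an unadjusted p under 0.05: Cd81, Fyn and Pik3ap1, beside 10.8% of all genes), while 0.997% of all genes were called (0.639% higher and 0.358% lower).

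KO vs HET, which shares its KO arrays with KO vs WT, asks what follows when the second allele is floxed as well. Pik3ap1 (0.35, SE 0.068, limma adjusted p = 0.00677), Cd81 (0.28), Vav2 (0.21, SE 0.057, limma adjusted p = 0.0389) and Rasgrp3 (0.17, SE 0.049, limma adjusted p = 0.0477) were higher, and 0 members were lower. Among all genes tested 4.56% were higher and 4.43% lower, 8.99% in all. An unadjusted p under 0.05 was reached by 17 members, the dim Vav3 among them, beside 23.2% of all genes. KO arrays lay above all HET arrays for 13 members and below them for 4, beside 14.5% and 13.1% of all genes (27.7% in all). Changes in KO vs WT stood beside these at 0.42 for Pik3ap1, 0.12 for Cd81, 0.21 for Vav2 and 0.23 for Rasgrp3. The call of Pik3ap1 was held in all 9 fits that left out an array and was lost when its probe sets were averaged (0.28, adjusted p = 0.0579). That of Vav2 was held only without WT replicate 3 or HET replicate 2 (adjusted p = 0.0388 and 0.0399) and otherwise reached adjusted p = 0.0501 to 0.134. That of Rasgrp3 was held only without WT replicate 3 (adjusted p = 0.0420) and otherwise reached adjusted p = 0.0557 to 0.160. With arrays split by their Xist signal as a block, Fyn (-0.40, limma adjusted p = 0.0333) and Syk (-0.24, limma adjusted p = 0.0338) were called lower, and Cd81 and Pik3ap1 remained higher. With quantile normalization 9 members were higher and 0 lower, beside 4.05% and 4.72% of all genes under that scaling. With each array centred on its median 1 member was higher and 4 were lower, beside 2.86% and 10.5%.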

How the data were processed

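Levels came from the deposited table, which lists 45101 probe sets on 9 arrays. The authors made these intensities (signals), which are linear and not logged, with MAS5, the tool that the submitters' processing notes name; its version is not given in the sources used here. Without the top and bottom 2% of probe sets, the mean was 500.0 on each array. For arrays, their number limits the precision. The platform annotation gave a single gene symbol to 34945 probe sets, several to 932 and none to 9160, and 64 were controls.

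Signals were used as log2(signal + 2.09), the 10th percentile of all signals, so fold changes of dim genes are understated. Each gene was read from its single-symbol probe set with the highest mean, kept when at or above the array median in at least 3 of 9 arrays. Linear models over all 9 arrays were fitted with limma 3.58.1 (eBayes with trend) in R 4.3.3, with Benjamini-Hochberg adjustment over 10329 genes, two-sided, and all adjusted p come from limma. The code was tested on simulated data. Replicates are separate animals per the labels; no batch, sex or litter is given. The titles' numbers are shared by no groups, so replicates were numbered in deposition order and not paired. Tyrosine motifs of the proteins were planned and not analysed here.

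Values in every array are given for members called in any pair of groups and for the core genes Cd79a, Cd79b, Syk, Btk, Blnk, Plcg2 and Cd22; of other lists, up to 6 called genes by adjusted p. The members and lists were chosen with earlier results of these data known, and the share of bright genes and Fyn and Syk in KO vs HET were added after seeing values.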

Additional observations from a re-analysis of the deposited data

How the results depend on the processing

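No paired analysis was possible because the groups share no replicate numbers in the labels. Over all alternatives of the members' KO vs WT changes, 570 kept their call status, 88 lost the call and 19 gained it. Of 284 alternatives of called members 1 turned the sign: Prkcd, at 0.09 (adjusted p = 0.723) with the brightest probe set without suffix. Among members not called, 18 of 393 turned the sign, in 9 genes with changes near 0 or up to the 0.12 of Cd81 (Blk, Blnk, Btk, Cd72, Cd79a, Cd81, Dok3, Prkcb and Ptpn6). Members called higher in KO vs WT (10) came to 4 with no filter, 1 with each array centred on its median, 3 with eBayes without trend and 6 with only the arrays of the 2 groups. Members called lower (3) came to 7 with centring (Vav3 included), 1 with a gene's probe sets averaged and 1 without trend. Leaving out single arrays gave 4 to 9 higher and 0 to 4 lower. The KO vs HET counts (4 higher, 0 lower) came to 2 higher with no filter, 9 with quantile normalization, 1 higher and 4 lower with centring, 1 higher without trend, and 2 higher and 2 lower with the Xist class as block; leaving out arrays gave 2 to 5 and 0 to 2. Over all genes, KO vs WT (1233) came to 2082 with centring and 768 to 1183 without single arrays. KO vs HET (929) came to 543 to 896 without single arrays. HET vs WT (1) came to 3 with robust eBayes, array weights or only the arrays of the 2 groups and to 1 to 3 without single arrays. The HET departure (103) came to 31 without trend and to 31 to 109 without single arrays. Counting Grb2, Prkcd and Itpkb as inhibitory gave a class difference of 0.07. The cause of these shifts was not tested. The 3 arrays a group limit precision: SEs of called members ran from 0.043 to 0.095 (log2).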
